A study of Mus musculus with 14 samples.

Results

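Egr1, Egr2, Egr3, Nr4a1, Nr4a2 and Nr4a3 were followed in natural killer (NK) cells sorted from mouse spleens and mammary tumours. These 6 genes are early response genes of receptor signalling, chosen by name with earlier results of these data known, and are 6 of the 10210 genes in the NK count table. All 6 were listed there, and all 6 passed the filter on low counts that left 8471 genes to test. The libraries are bulk RNA-seq of messenger RNA 3' ends.

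The NK libraries form 3 groups. Healthy spleen NK cells came from 8-week-old BALB/c mice without a tumour (n = 3). Tumour-bearing spleen NK cells came from BALB/c females that had received 100000 GFP-labelled 4T1 cells in a mammary fat pad at 8 weeks of age (n = 4), and tumour NK cells came from 4T1 tumours grown in the same way (n = 4). 4T1 is a single mouse mammary carcinoma line, grown here by injection. The interval from injection to sampling is not given in the sources used here. Magnetic enrichment was followed by a sort for NKp46+ and CD45+ cells lacking GFP, EPCAM, CD3, CD31 and CD14. Spleens were crushed and their red blood cells lysed on ice, with no enzyme digestion in either spleen group. Tumours were minced and held for 20 minutes at 37 °C with collagenase A and DNase. The comparison of both spleen groups therefore sets a tumour in the animal against none without a difference in digestion. In it, the injection itself and any difference in age at sampling cannot be told apart from the tumour. In the comparison of tumour with spleen, the tissue and the digestion cannot be told apart. The series calls the libraries of a group independent replicates and does not say which animals they came from.

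The Egr genes encode zinc finger transcription factors that are transcribed within minutes of a stimulus and bind GC-rich DNA. Egr1 follows Ras and ERK signalling through serum response factor in many cell types, and Egr2 and Egr3 follow calcium and NFAT signalling in lymphocytes, where they restrain further activation. The Nr4a genes encode nuclear receptors that act without a known natural ligand. They are induced by antigen receptors in T cells, where Nr4a1 reporters are used to read recent receptor signalling and where lasting expression goes with reduced function. In NK cells both families are known as early response genes downstream of activating receptors, and Nr4a genes also respond to cyclic AMP and to handling of tissue.

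The bases just before an annotated start of 4 of these genes are shown because they hold the short elements through which both families are known to be induced. The sequences are from RefSeq on build GRCm38.p6, 5′ to 3′ on the gene's strand, and belong to the reference strain, not to BALB/c. For Nr4a1 (gene at chr15:101253902-101274795) and Nr4a2 (gene at chr2:57106830-57124003, minus strand) they are the 250 bases before an annotated start. The Nr4a1 start used, at 101266846, and the bases before it lie inside the gene span. For Nr4a3 (gene at chr4:48045078-48086447) and Egr2 (gene at chr10:67534469-67542188) they are the stretch with most matches. Egr2 has several annotated starts, and positions below are counted from the one at 67537869. For Nr4a3 they are counted from 48045305. Both starts lie inside the gene span, and 152 of the 250 bases before the Nr4a3 start lie in GENCODE exons. Capitals mark the CRE core, TGACG or its complement CGTCA, which is the shorter form of the element bound by CREB and related factors. In Egr2 they also mark the CArG box, the element bound by serum response factor.
Nr4a1, chr15:101266596-101266845, plus strand: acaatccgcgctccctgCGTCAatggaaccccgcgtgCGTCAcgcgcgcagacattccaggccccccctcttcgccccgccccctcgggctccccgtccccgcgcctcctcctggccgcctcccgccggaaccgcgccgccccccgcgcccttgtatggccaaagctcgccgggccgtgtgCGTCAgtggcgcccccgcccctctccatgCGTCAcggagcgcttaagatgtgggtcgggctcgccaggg
Nr4a2, chr2:57124004-57124253, minus strand: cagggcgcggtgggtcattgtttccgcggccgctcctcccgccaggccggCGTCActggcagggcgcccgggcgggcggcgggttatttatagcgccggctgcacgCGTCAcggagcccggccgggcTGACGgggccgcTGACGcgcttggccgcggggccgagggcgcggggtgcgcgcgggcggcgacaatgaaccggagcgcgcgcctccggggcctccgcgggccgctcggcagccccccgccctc
Nr4a3, chr4:48045055-48045107, plus strand: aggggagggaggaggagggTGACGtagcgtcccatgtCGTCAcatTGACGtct
Egr2, chr10:67537792-67537821, plus strand: tcagtCCATATATGGgcagcgaCGTCAcgg

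Each of the 3 Nr4a genes had 4 CRE cores within the 250 bases before the start used here. Their first bases lay at -233, -213, -69 and -40 in Nr4a1, at -200, -144, -123 and -111 in Nr4a2, and at -231, -213, -205 and -147 in Nr4a3. Over all 32851 upstream windows of the same length in the table, 17.8% held at least 1 CRE core on either strand and 45 windows, or 0.137%, held 4 or more. The Egr2 window had 2 CRE cores and 1 CArG box at -72 to -63, an element found in 1.47% of windows. An EGR site, GCGNGGGCG on either strand, was found in 4.7% of windows and lay at -60 to -52 in Nr4a1 and at -74 to -66 in Nr4a2. None of these 4 windows held the full CRE, TGACGTCA, which contains the core and occurs in 1.55% of windows, or the Nr4a response element AAAGGTCA, which occurs in 1.34%. These matches describe letters and are not shown to be bound or used in these cells.

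**Figure D1:**
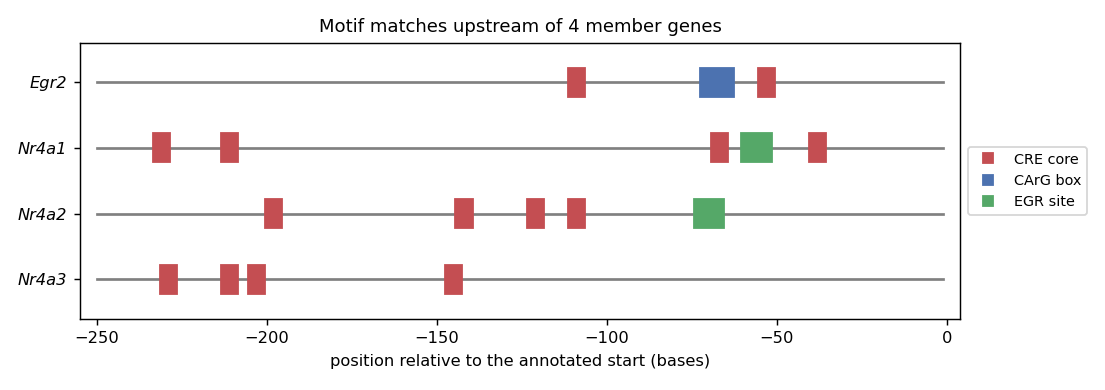
Motif matches in the 250 bases before an annotated start of Egr2, Nr4a1, Nr4a2 and Nr4a3. The horizontal axis is the position relative to that start in bases, and boxes are CRE cores, CArG boxes and EGR sites. Each Nr4a window holds 4 CRE cores, and the only CArG box is in the Egr2 window.

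Total counts per NK library ran from 559688, in healthy spleen replicate 1, to 1966963. Levels are given as CPM, in which each library's counts are divided by its size after adjustment by edgeR's trimmed mean of M-values (TMM), and a count of 0 allows up to 1.54 to 4.62 CPM, counting error only. Within groups, log2 CPM of replicates correlated across genes at r of 0.916 to 0.978. The sort label was borne out by the NK cell markers, of which 18 of 19 were listed, Ncr1 (the NKp46 gene) among them at 716.9 CPM or more in every library. They took 3.56% to 3.89% of counts in healthy spleens, 3.50% to 3.80% in tumour-bearing spleens and 2.61% to 3.04% in tumours. The 6 genes together took 0.0175% to 0.0377%, 0.0288% to 0.0637% and 0.303% to 0.422% of counts in the same groups. The spleen libraries split along their first principal component, within groups, into 2 sets. Set A held healthy replicate 1 and tumour-bearing replicates 1 and 2, and set B held the other 4 spleen libraries.

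All 3 Egr genes rose in spleen NK cells of tumour-bearing mice, by 3.93-fold for Egr1, 4.50-fold for Egr2 and 6.44-fold for Egr3, whereas none of the 3 Nr4a genes passed the test. This is 3 of 6 genes called higher, where 1.23% of all genes tested were called higher in this comparison (104 of 8471). Egr3, with 13 counts over all healthy spleens, passed the filter on low counts through the tumour-bearing spleens, where it is high. Its count among the 3 is therefore a description, and without it 2 genes, Egr1 and Egr2, were called. In bulk libraries a larger share of cells that express a gene and more of its RNA per cell cannot be told apart.

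Egr1, the immediate early factor of growth factor and receptor signals, stood at 29.3, 22.5 and 14.03 CPM in the healthy spleens and at 104.4, 96.0, 80.8 and 51.4 CPM in the tumour-bearing spleens. The lowest tumour-bearing library lay above the highest healthy one. The log2 fold change was 1.97 (SE 0.280, 95% confidence interval 1.38 to 2.57, adjusted p = 0.00100 from the quasi-likelihood F test of edgeR, with Benjamini-Hochberg adjustment over all genes, used throughout). Egr2, which limits T cell activation together with Egr3, was at 9.25, 4.82 and 1.65 CPM in healthy spleens, from 6, 9 and 2 counts. It was at 22.1, 24.0, 21.6 and 16.6 CPM in tumour-bearing spleens, from 29, 43, 42 and 23 counts, so the groups were apart. The log2 fold change was 2.17 (SE 0.378, interval 1.38 to 2.96, edgeR adjusted p = 0.00337). Egr3, the closest relative of Egr2 in lymphocyte function, was at 1.54, 2.68 and 5.78 CPM in healthy spleens, from only 1, 5 and 7 counts. In tumour-bearing spleens it was at 24.4, 38.0, 10.3 and 19.5 CPM, from 32, 68, 20 and 27 counts, and each of these libraries lay above all healthy ones. Its log2 fold change was 2.69 (SE 0.487, interval 1.67 to 3.71, edgeR adjusted p = 0.00520). Libraries that do not overlap, with the tumour-bearing group higher, occurred for 6.52% of all genes.

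Summed over libraries, 537 counts of Egr1 in tumour-bearing spleens stood against 78 in healthy ones, a ratio of 4.00 after scaling with an exact 95% counting interval of 3.15 to 5.13. Egr2 had 137 against 17 counts (ratio 4.68, 2.82 to 8.26) and Egr3 147 against 13 (ratio 6.56, 3.72 to 12.6). Counting error thus leaves the size of the Egr2 and Egr3 differences wide. Leaving out healthy spleen replicate 2, the library with the largest total of its group, gave log2 fold changes of 2.22 for Egr2 (edgeR adjusted p = 0.0523) and 2.42 for Egr3 (edgeR adjusted p = 0.0929), so both calls rest on it.

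The Nr4a genes were measured at higher mean levels in tumour-bearing than in healthy spleens, but their libraries overlapped. Nr4a1 (Nur77) was at 203.4, 166.9 and 108.9 CPM in healthy spleens and at 275.2, 320.4, 413.3 and 148.3 CPM in tumour-bearing ones. Tumour-bearing replicate 4 lay within the healthy range and the other 3 above it. The log2 fold change was 0.88 (SE 0.297, interval 0.23 to 1.52), which did not pass (edgeR adjusted p = 0.215). Nr4a2 (Nurr1), known best for its role in dopamine neurons, was at 29.3, 32.6 and 21.5 CPM against 68.6, 52.5, 64.3 and 12.3 CPM, with the same replicate 4 below all healthy libraries. The difference on the log2 scale was 0.83 (SE 0.471, interval -0.22 to 1.88, edgeR adjusted p = 0.582). Nr4a3 (Nor1) was at 52.4, 12.3 and 23.1 CPM against 71.6, 68.1, 39.6 and 49.9 CPM, where healthy replicate 1 overlapped the tumour-bearing range. Its log2 fold change was 1.17 (SE 0.375, interval 0.35 to 1.98, edgeR adjusted p = 0.191). The intervals of Nr4a1 and Nr4a3 lie above 0 before adjustment over genes, so these data do not show that the genes were unchanged.

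Single libraries decided these calls. Without tumour-bearing replicate 4, which was also the lowest of its group for Egr1 and Egr2, Nr4a1 (log2 fold change 1.08, edgeR adjusted p = 0.0175) and Nr4a2 (1.13, edgeR adjusted p = 0.0130) passed. Without healthy replicate 1, Nr4a3 passed (1.75, edgeR adjusted p = 0.00117). Every tumour-bearing spleen lay above every healthy one for each Egr gene, so the same order within both library sets follows and adds no support. The values within the sets are given as a description. In set A the lowest tumour-bearing library and the single healthy library were at 96.0 and 29.3 CPM for Egr1, 22.1 and 9.25 CPM for Egr2, and 24.4 and 1.54 CPM for Egr3. In set B the lowest tumour-bearing and the highest healthy library were at 51.4 and 22.5 CPM, 16.6 and 4.82 CPM, and 10.3 and 5.78 CPM. The within-set difference of mean log2 CPM was 1.72 and 1.77 for Egr1, 1.19 and 2.20 for Egr2, and 3.40 and 1.52 for Egr3, in set A and then set B. For Nr4a1 it was 0.54 and 0.87, for Nr4a2 1.00 and 0.11, and for Nr4a3 0.40 and 1.32.

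**Figure D2:**
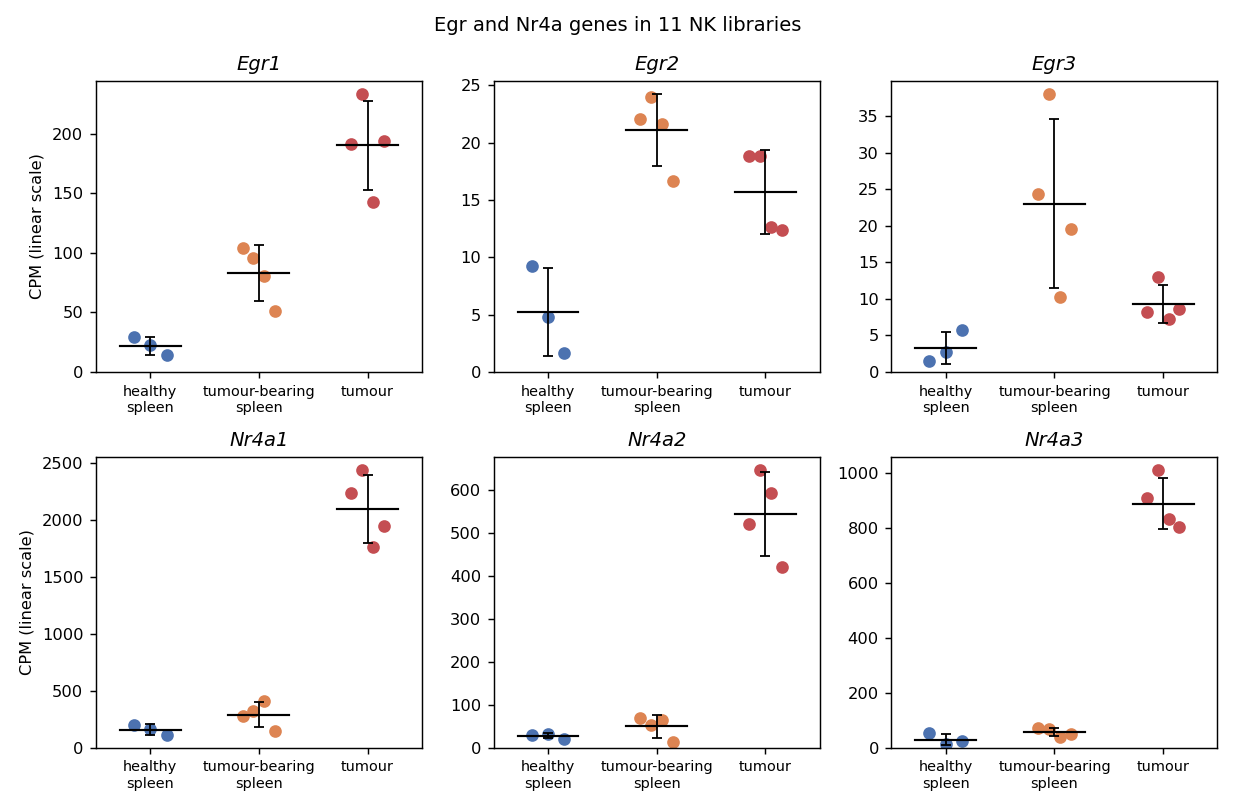
CPM on linear axes of the 6 genes in the 11 NK libraries (points), by group, with the mean (horizontal line) and SD (bar). The Egr genes are higher in all 4 tumour-bearing spleens than in all healthy spleens, while the 3 Nr4a genes are higher in all 4 tumours than in every spleen library.

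In tumour NK cells the Nr4a genes and Egr1 were higher than in tumour-bearing spleens, and Egr2 and Egr3 were not. The Nr4a genes rose 7.23-fold (Nr4a1), 10.9-fold (Nr4a2) and 15.5-fold (Nr4a3) over tumour-bearing spleens. Egr1 rose 2.27-fold, Egr3 fell 2.59-fold and Egr2 did not pass the test. In all, 4 of the 6 genes were called higher and 1 lower, where 15.8% of all genes were called higher and 13.2% lower, so that calls are common in this comparison. The gene called lower, Egr3, passed the filter on low counts through the tumour-bearing spleens, where it is high. Its count here is therefore a description. The median log2 fold change of the 6 genes was 2.02, beside 0.0014 over all genes.

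Nr4a1 was at 2239.6, 2441.7, 1762.9 and 1951.0 CPM in the 4 tumours, and the lowest of these was above the highest spleen library of either group, 413.3 CPM. The log2 fold change over tumour-bearing spleens was 2.85 (SE 0.275, interval 2.26 to 3.45, edgeR adjusted p = 3.37e-06). Nr4a2 was at 520.6, 644.8, 592.2 and 419.3 CPM, again above every spleen library, with a log2 fold change of 3.45 (SE 0.378, interval 2.60 to 4.29, edgeR adjusted p = 7.52e-05). Nr4a3 was at 909.1, 1010.0, 831.5 and 803.4 CPM, and its spleen libraries did not exceed 71.6 CPM. The log2 fold change was 3.96 (SE 0.297, interval 3.31 to 4.60, edgeR adjusted p = 6.00e-07). Libraries that do not overlap, with the tumours above the tumour-bearing spleens, occurred for 16.5% of all genes. The 3 intervals overlap, and differences between the 3 genes were not tested.

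Egr1 was at 191.8, 233.3, 142.5 and 194.0 CPM in tumours, where the lowest library was above the highest tumour-bearing spleen at 104.4 CPM, as for 16.5% of all genes. Its log2 fold change was 1.18 (SE 0.208, interval 0.74 to 1.62, edgeR adjusted p = 0.000384). Egr2 was at 18.9, 18.8, 12.6 and 12.4 CPM, partly within the range of the tumour-bearing spleens, with a log2 fold change of -0.46 (SE 0.281, interval -1.05 to 0.13, edgeR adjusted p = 0.234). Egr3 was at 8.20, 13.04, 7.22 and 8.56 CPM, from 10, 9, 12 and 9 counts. Only tumour replicate 2, at 13.04 CPM, reached into the range of the tumour-bearing spleens, whose lowest library was at 10.3 CPM. Its log2 fold change was -1.37 (SE 0.376, interval -2.16 to -0.59, edgeR adjusted p = 0.00990), and its summed counts were 40 against 147, a ratio of 0.378 with a counting interval of 0.260 to 0.540. The call was lost without tumour-bearing replicate 2, the library with most Egr3 (log2 fold change -0.99, edgeR adjusted p = 0.0523), and against the set B spleens alone (-0.75, edgeR adjusted p = 0.156).

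**Figure D3:**
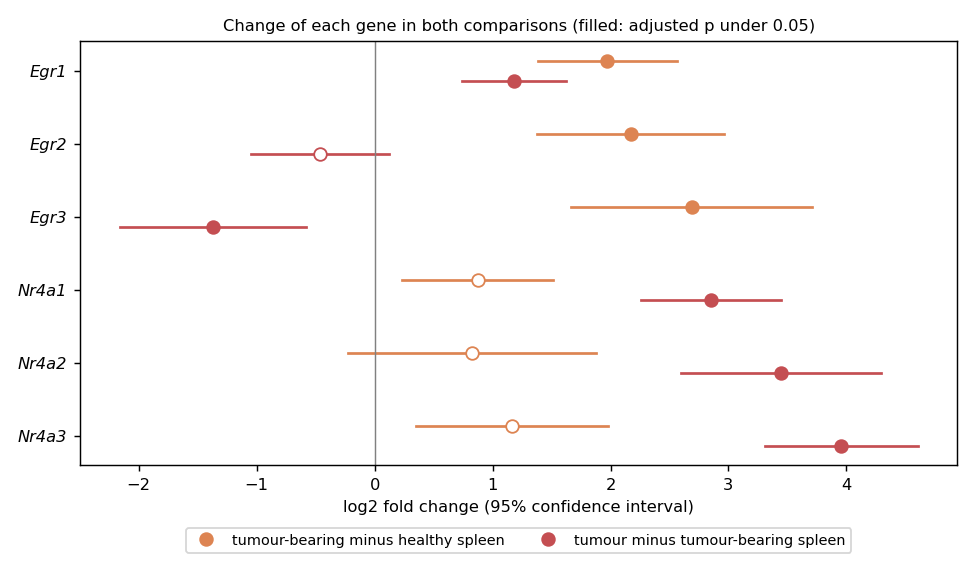
Log2 fold change with its 95% confidence interval (edgeR) for each gene, in tumour-bearing minus healthy spleen and in tumour minus tumour-bearing spleen; filled points have an adjusted p under 0.05. Egr2 and Egr3 lie to the right of 0 in the spleen comparison and to the left in the tumour comparison, and the Nr4a genes lie farthest right in the tumour comparison.

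Against healthy spleens, 5 of the 6 genes were higher in tumours, where 16.5% of all genes were called higher. Every tumour library lay above every healthy one for 18.5% of all genes. The log2 fold changes were 3.15 for Egr1 (edgeR adjusted p = 2.43e-07), 1.71 for Egr2 (0.00304), 3.73 for Nr4a1 (1.45e-06), 4.27 for Nr4a2 (6.87e-05) and 5.12 for Nr4a3 (5.89e-07). Egr3 was at 3.33 ± 2.19 CPM (SD, n = 3) in healthy spleens and 9.25 ± 2.59 CPM (SD, n = 4) in tumours, with each tumour library higher, but its log2 fold change of 1.31 (SE 0.562) did not pass (edgeR adjusted p = 0.0855). The order of group means was thus healthy spleen, tumour-bearing spleen, tumour for Egr1 and each Nr4a gene. For Egr2 and Egr3 it was healthy spleen, tumour, tumour-bearing spleen. Neighbouring groups in these orders whose difference did not pass were the spleen groups for each Nr4a gene, both tumour-bearing mouse tissues for Egr2, and healthy spleen and tumour for Egr3.

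The difference between the changes was tested as 1 contrast, the change from tumour-bearing spleen to tumour minus the change from healthy to tumour-bearing spleen. Both changes use the tumour-bearing spleen libraries, once with each sign. Over all genes 4.67% were called higher and 3.65% lower in this contrast, and of the 6 genes 2 were called higher and 2 lower. Among those called lower is Egr3, which passed the filter on low counts through the tumour-bearing spleens, where it is high. Its count is again a description. The tumour change was smaller for Egr2 (-2.63, SE 0.540, edgeR adjusted p = 0.00423) and Egr3 (-4.06, SE 0.694, edgeR adjusted p = 0.00111). It was larger for Nr4a1 (1.98, SE 0.485, edgeR adjusted p = 0.0230) and Nr4a3 (2.79, SE 0.571, edgeR adjusted p = 0.0100). It did not pass for Egr1 (-0.79, edgeR adjusted p = 0.267) or Nr4a2 (2.62, SE 0.728, edgeR adjusted p = 0.0570). The call for Nr4a1 was lost without healthy replicate 1 (1.76, edgeR adjusted p = 0.0599), without tumour-bearing replicate 1 (1.91, 0.0726) and without tumour-bearing replicate 2 (2.08, 0.0527). Nr4a2 passed without tumour-bearing replicate 4 (2.00, edgeR adjusted p = 0.00185).

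The ratio of summed Nr4a counts to summed Egr counts within a library needs no scaling between libraries, and showed the change in balance. It was 7.12, 7.07 and 7.15 in healthy spleens, 2.75, 2.79, 4.59 and 2.405 in tumour-bearing spleens, and 16.8, 15.4, 19.6 and 14.8 in tumours. Each tumour-bearing spleen lay below each healthy spleen, and each tumour above both. The healthy ratios rest on 26, 56 and 26 Egr counts, too few to read their closeness to each other. The sums are mostly Nr4a1 and Egr1, with 2732 of 4476 Nr4a counts and 234 of 267 Egr counts in tumour replicate 1. This ratio was chosen after its values were seen and is given without a test, and it compares libraries, not the levels of one gene with another.

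**Figure D4:**
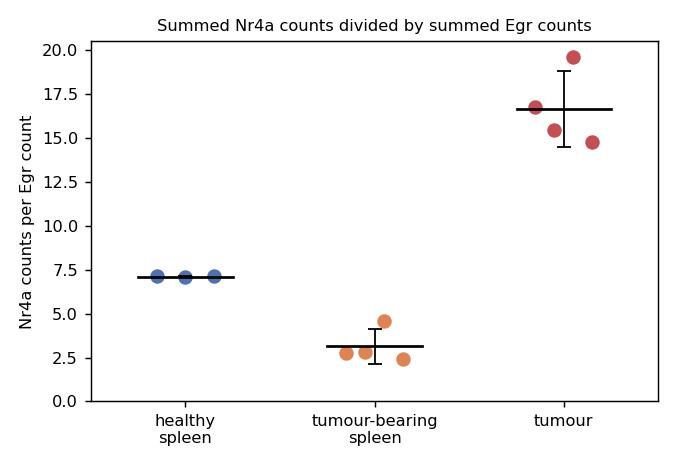
Summed counts of Nr4a1, Nr4a2 and Nr4a3 divided by summed counts of Egr1, Egr2 and Egr3 in each NK library (points), with the group mean (line) and SD (bar). The healthy spleens lie near 7, the tumour-bearing spleens at 2.405 to 4.59 and the tumours at 14.8 to 19.6.

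Markers of other cells moved with some of these differences. Macrophage and monocyte markers, 11 of 17 listed, took 0.0248% to 0.107% of counts in healthy and 0.0243% to 0.0833% in tumour-bearing spleens, overlapping ranges, and Csf1r, the receptor that defines macrophages, was at 0 in all 7 spleen libraries. In tumours they took 0.0675% to 0.137%, and their difference from tumour-bearing spleens did not pass (exact permutation test, two-sided, p = 0.0571, adjusted p = 0.0857 over 27 tests). The share is mostly Ccr2, at 151.3 to 713.4 CPM in tumour-bearing spleens and 554.3 to 1052.8 CPM in tumours, so it says little of the other genes. Each of the 11 had a higher mean in tumours. Cd14 was at 0 to 1.67 CPM and 4.75 to 19.2 CPM in these groups, and Apoe at 3.81 to 7.21 CPM and 10.1 to 105.2 CPM. Tumour replicate 3 had the most Lyz2 (40.3 CPM, against 4.10 to 7.25 CPM in the other tumours) and the most Apoe (105.2 CPM), and among the tumours it was lowest for Egr1, Egr3 and Nr4a1 but second highest for Nr4a2, at 592.2 CPM. Neutrophil markers, 6 of 13 listed, reached 0.00143% in tumour-bearing spleens and 0.00601% to 0.0191% in tumours.

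T cell markers, 4 of 13 listed, rose from 0.00697% to 0.0105% in healthy spleens to 0.0128% to 0.0163% in tumour-bearing spleens, and were at 0.00810% to 0.0127% in tumours. Both differences had the smallest p these designs allow, 0.0286 (exact permutation test, adjusted p = 0.0482). This is the same order of groups as for Egr2 and Egr3. Cd3d, a T cell receptor subunit gene that NK cells can also transcribe, was at 20.0 to 38.0 CPM in healthy spleens, 57.5 to 104.1 CPM in tumour-bearing spleens and 32.3 to 64.9 CPM in tumours. Cd3g, another subunit gene of that receptor, was at 21.6 to 39.6 CPM, 40.7 to 53.5 CPM and 22.2 to 48.4 CPM in the same groups, also apart between the spleens. Lef1, a T cell transcription factor gene that NK cells also make, was at 17.0 to 30.5 CPM, 10.3 to 22.1 CPM and 18.04 to 31.15 CPM, and Cd4 had too few counts in the spleens to be compared. Dendritic cell markers, 6 of 12 listed, took 0.0225% to 0.0264%, 0.0355% to 0.0454% and 0.0476% to 0.0636% of counts in healthy spleens, tumour-bearing spleens and tumours (exact permutation adjusted p = 0.0482 for each step). The highest of them, Itgax, had means of 160.4, 269.6 and 198.3 CPM, so it did not follow this order, while the means of the other listed genes did. Fibroblast markers, 4 of 12 listed and mostly Thy1, which lymphocytes also make, took 0.0205% to 0.0259%, 0.0392% to 0.0519% and 0.0700% to 0.0864%. This rise was mostly that of Thy1. Col3a1 (means of 5.12, 1.68 and 3.09 CPM) and Sparc (5.08, 2.32 and 4.79 CPM) were highest in healthy spleens. Col1a2 had about the same mean in both spleen groups and a higher one in tumours. The libraries of Col3a1, Sparc and Col1a2 overlapped between the spleen groups. Mast cell markers, 2 of 8 listed and mostly Kit, rose from a mean of 0.00152% in healthy to 0.00338% in tumour-bearing spleens and 0.0115% in tumours (exact permutation adjusted p = 0.0482 for each step). Pecam1, the CD31 gene and the single endothelial marker listed of 8, took 0.00482% to 0.00810%, 0.00792% to 0.00930% and 0.0131% to 0.0185%. The epithelial markers Epcam and Cdh1, 2 of 12 listed, were at most 0.000357% in spleens and at 0.00250% to 0.00510% in tumours. The part of these cells in the Egr and Nr4a differences was not tested.

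The pathways around these genes were described with lists drawn up, like the choice of the 6 genes, with earlier results of these data known. In the spleen comparison no gene of the signalling lists passed the test, beside 1.23% of all genes called higher and 0.354% lower. This holds for 25 genes of the calcium and NFAT arm, 25 of the Ras, ERK and serum response factor arm, 26 genes of NK receptors, adaptors and kinases, and 8 co-repressors and partners of Egr and Nr4a proteins. Their median log2 fold changes were -0.055, 0.052, -0.063 and -0.10, beside -0.0042 over all genes. Calls were rare over all genes in this comparison, so the absence of calls says little of these lists. The co-repressor gene Nab2, itself an Egr target whose product silences Egr proteins, was at 48.0 ± 25.7 CPM (SD, n = 3) and 83.8 ± 15.5 CPM (SD, n = 4), which did not pass (log2 fold change 0.72, edgeR adjusted p = 0.334). The calcium channel gene Orai1 did not pass either (0.49, edgeR adjusted p = 0.106).

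Among 21 genes linked to Egr2 and Egr3 in lymphocytes, 6 rose and none fell in tumour-bearing spleens, with a list median of 0.76, beside 1.23% of all genes called higher and 0.354% lower. The 6 were Nrgn, a calmodulin-binding protein gene, Ccl3, Ccl4 and Xcl1, chemokine genes of activated NK cells, Tnfrsf9, the gene of the costimulatory receptor 4-1BB, and Ifng, the gene of interferon gamma. Nrgn was at 129.6 ± 22.1 CPM in healthy and 554.6 ± 108 CPM in tumour-bearing spleens (SD, n = 3 and 4; log2 fold change 2.08, edgeR adjusted p = 6.95e-06). Ccl4 rose by 2.06 (edgeR adjusted p = 8.98e-06), Tnfrsf9 by 1.91 (2.59e-05), Xcl1 by 1.54 (0.000725), Ccl3 by 1.24 (0.000206) and Ifng by 1.19 (0.00234) on the log2 scale. Of 16 genes linked to Nr4a factors only Tigit, the gene of an inhibitory receptor, passed (2.48, edgeR adjusted p = 0.000320), and the list median was 0.31.

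Of 35 other immediate early genes, 2 rose between the spleen groups, beside 1.23% of all genes called higher, and the list median was 0.27. These were Dusp2, a phosphatase gene that limits ERK signalling, from 762.2 to 1513 CPM (log2 fold change 0.99, edgeR adjusted p = 0.00161), and Jun, a subunit gene of AP-1, from 11.4 to 34.8 CPM (1.64, edgeR adjusted p = 0.00337). Jund (0.66, edgeR adjusted p = 0.0699) and Atf3 (1.99, edgeR adjusted p = 0.177) did not pass. Of 37 genes known to respond to tissue dissociation, 4 rose, beside the same 1.23% of all genes, with a median of 0.29. They were Jun and the heat shock genes Hsph1 (1.37, edgeR adjusted p = 0.000366), Hsp90ab1 (1.19, edgeR adjusted p = 0.000400) and Hspe1 (0.94, edgeR adjusted p = 0.00695). Neither spleen group was digested. How long tissue was handled before sorting is not given in the sources used here, and its part was not tested.

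In tumours the picture of these lists was different. Of the 35 other immediate early genes 33 rose and 1, Klf2, fell, with a median log2 fold change of 2.24. Of the 37 dissociation response genes 26 rose and 1, Hsph1, fell, with a median of 1.38. The lists share 14 of the genes tested, 40.0% of the first and 37.8% of the second. These counts stand beside 15.8% of all genes called higher and 13.2% lower. Gadd45b, a stress response gene, rose by 3.85 (edgeR adjusted p = 4.48e-12), the immediate early gene Csrnp1 by 3.45 (1.37e-11), the NF-κB inhibitor gene Nfkbia by 2.76 (2.08e-11) and the cytokine signalling inhibitor gene Socs3 by 3.09 (1.16e-10). Of the 35 other immediate early genes, the 1 that did not pass was Klf10 (log2 fold change -0.16, edgeR adjusted p = 0.456).

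The signalling lists had calls in both directions. Among the 8 co-repressors and partners Rcor1, a subunit gene of a repressor complex, rose by 0.54 (0.0237) and Nab2 fell by 0.85 (0.0286). In the calcium and NFAT arm 7 of 25 genes rose and 2 fell, with a median of 0.14. Orai1 rose from 93.2 ± 3.43 to 285.0 ± 28.6 CPM (log2 fold change 1.61, edgeR adjusted p = 8.75e-09), the kinase gene Camk4 rose by 2.80 (2.75e-06) and Nfatc1, a transcription factor gene induced by calcium signals, by 0.71 (0.000204). In the Ras, ERK and serum response factor arm 4 of 25 rose and 4 fell, shares near the 15.8% higher and 13.2% lower of all genes, so the counts say nothing of this list. Crem, a cyclic AMP response gene whose product binds CRE elements, went from 21.2 ± 13.1 to 447.8 ± 68.6 CPM (4.42, edgeR adjusted p = 6.79e-05), and the ERK phosphatase gene Dusp5 rose by 2.26 (1.17e-08). Rasgrp2, an activator of Rap1, fell by 1.52 (1.23e-07), and Mrtfa, a partner of serum response factor, fell by 0.75 (0.000151). Of 26 genes of NK receptors, adaptors and kinases 3 rose and 7 fell. The kinase gene Txk rose by 0.76 (0.000594), while the kinase gene Syk fell by 0.83 (0.000365) and the receptor gene Klrb1c, the gene of NK1.1, fell by 0.68 (0.000167). All p-values in this paragraph are adjusted values from edgeR.

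Of the 21 genes linked to Egr2 and Egr3, 8 rose and 4 fell in tumours, beside 15.8% of all genes called higher and 13.2% lower. The number that fell is near that background. Those that fell were Ccl3 (-1.29, edgeR adjusted p = 1.35e-06), Nrgn (-1.09, edgeR adjusted p = 3.48e-05), Dgkz (-0.82, edgeR adjusted p = 0.000898) and Nab2 (-0.85, edgeR adjusted p = 0.0286). Ccl3 went from 566.2 ± 54.1 CPM in healthy spleens to 1342 ± 215 CPM in tumour-bearing spleens and 548.0 ± 58.3 CPM in tumours, and Nrgn from 129.6 ± 22.1 to 554.6 ± 108 and 260.0 ± 44.3 CPM. Both had their highest mean in the tumour-bearing spleens. Tnfrsf9 and Xcl1 instead rose again, by 1.56 (edgeR adjusted p = 1.87e-07) and 1.75 (edgeR adjusted p = 1.84e-06), and Cdkn1a, a cell cycle inhibitor gene, rose by 4.17 (edgeR adjusted p = 7.29e-13). Of the 16 genes linked to Nr4a factors 10 rose and 2 fell, with a median of 1.24. Bcl2l11, the gene of the pro-apoptotic protein Bim, rose by 2.20 (edgeR adjusted p = 6.30e-10), Bhlhe40 by 2.47 (edgeR adjusted p = 2.20e-09) and Nfil3, a factor of NK development, by 1.62 (edgeR adjusted p = 4.73e-07). Pdcd1, the gene of the inhibitory receptor PD-1, was below the limit of a count of 0 in the spleen means and at 16.6 ± 9.25 CPM (SD, n = 4) in tumours. Prdm1 and Tbx21 fell.

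**Figure D5:**
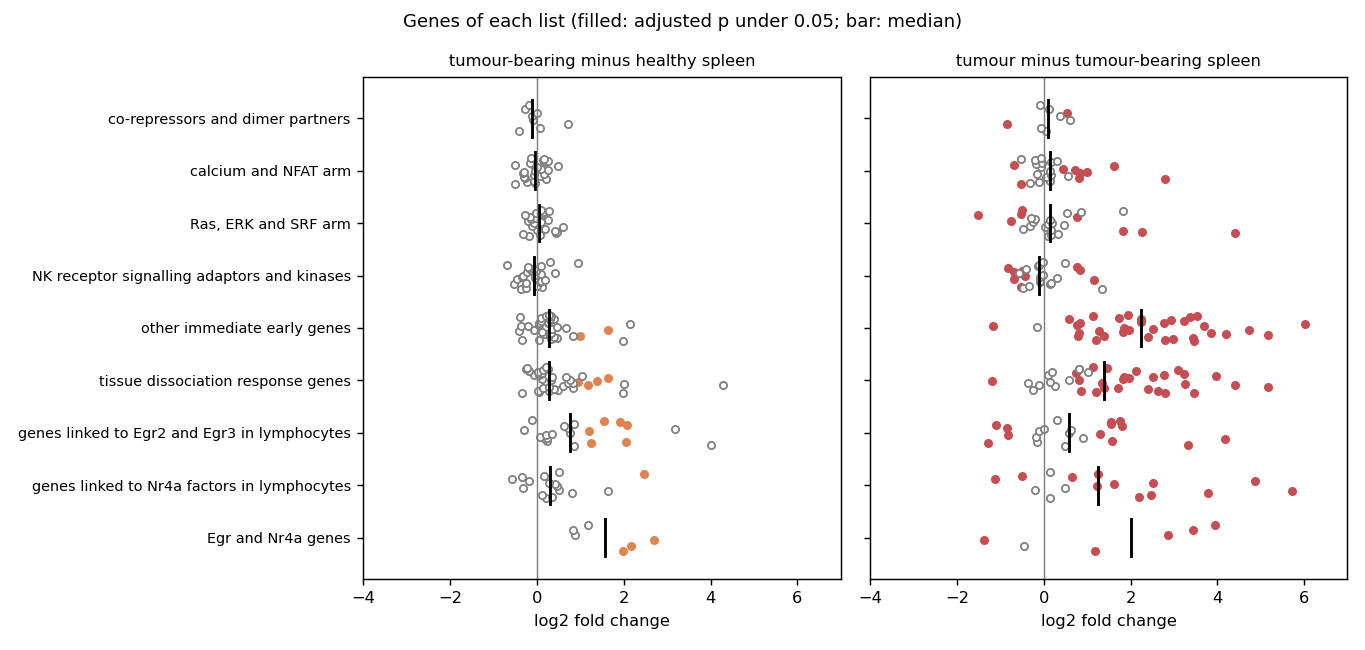
Log2 fold change (edgeR) of each tested gene of 8 pathway lists and of the 6 Egr and Nr4a genes, in tumour-bearing minus healthy spleen (left) and tumour minus tumour-bearing spleen (right); filled points have an adjusted p under 0.05 and bars are medians. In the left panel the medians of the signalling lists lie near 0 and that of the genes linked to Egr2 and Egr3 is 0.76; in the right panel the other immediate early genes have a median of 2.24.

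The genes most like each member over the 11 NK libraries, by Pearson's r of log2 CPM, were mostly different from member to member. These values are descriptions, since they mix differences between groups with those within them and all genes of a library share its depth. For Nr4a1 they were Smim3 (0.991), Siah2 (0.990) and Pdgfa (0.985), for Nr4a2 Fosb (0.985), Pdgfa (0.982) and Tnfrsf12a (0.981), and for Nr4a3 Rnf19b (0.996), Lilrb4a (0.995) and Gzmc (0.991). For Egr1 they were Lcp1 (0.977), Lysmd2 (0.972) and Prkch (0.972), for Egr2 Bpnt1 (0.890) and Klf10 (0.862), and for Egr3 Ubqln1 (0.898), Fkbp5 (0.896) and Tnfsf14 (0.876). Over the 7 spleen libraries alone the closest were Lcp1 for Egr1 (0.998), Gtf2f2 for Egr2 (0.990), Cenpt for Egr3 (0.980), Ehd4 for Nr4a1 (0.972), Hat1 for Nr4a2 (0.981) and Hspa4l for Nr4a3 (0.972).

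Among the members, r over the 11 libraries was 0.981 for Nr4a1 with Nr4a2, 0.958 for Nr4a1 with Nr4a3 and 0.933 for Nr4a2 with Nr4a3. Over the 7 spleen libraries the same pairs had r of 0.842, 0.519 and 0.292, lower in each case. Egr1 with Egr2 had r of 0.771 over 11 and 0.968 over 7 libraries, Egr1 with Egr3 had 0.472 and 0.784, and Egr2 with Egr3 had 0.656 and 0.687. Across families, Egr1 had r of 0.893, 0.848 and 0.873 with Nr4a1, Nr4a2 and Nr4a3 over the 11 libraries, above its values with Egr2 and Egr3. Over the spleens Egr1 with Nr4a1 had 0.835 and Egr2 with Nr4a1 had 0.814, above that of Nr4a1 with Nr4a3. Egr3 had r of 0.0882, 0.0489 and 0.143 with Nr4a1, Nr4a2 and Nr4a3 over the 11 libraries.

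The same genes were counted in sCAFs, fibroblast-like cells of 4T1 tumours sorted for the absence of CD31, CD45, PDPN, EPCAM and GFP (n = 3), in a separate table of 12235 genes. Their CPM, on the totals of that table, give no comparison with the NK libraries. Egr1 was at 842.0, 1078.1 and 1419.8 CPM, Egr2 at 142.6, 74.4 and 76.6 CPM and Egr3 at 30.5, 24.3 and 50.3 CPM. Nr4a1 was at 2099.6, 1185.1 and 1512.9 CPM, Nr4a2 at 113.4, 113.8 and 263.5 CPM and Nr4a3 at 34.5, 18.2 and 46.6 CPM. All 6 genes were therefore detected in digested tumour cells that are not NK cells, in each of the 3 libraries.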

How the data were processed

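The authors deposited raw counts per gene symbol for 11 NK and 3 sCAF libraries, in separate tables. Per the submitters' processing notes, bcl2fastq, STAR 2.4.2a, HTSeq and the build mm10 were used. The annotation and any use of molecular identifiers are not given in the sources used here. No gene of the NK table stayed under 6 counts in all libraries, which means that genes with few counts are not in it. In each header a run of spaces replaced 1 tab, and columns were matched by name in header order.

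Here genes were filtered with filterByExpr (8471 kept), scaled by TMM (factors 0.9096 to 1.168) and fitted in 1 quasi-likelihood model of the 11 NK libraries with edgeR 4.0.16 (R 4.3.3), after the script was tested on simulated data. Calls were made at 0.05 on p-values adjusted by Benjamini-Hochberg over the whole table. SE is the log2 fold change divided by the root of the F statistic. Log2 CPM used a prior count of 2. limma 3.58.1 and DESeq2 1.42.0 served as alternatives. p-values measure the spread between these libraries. Exons of the 6 genes overlap no other gene in GENCODE M21. Named list genes are those of smallest p, up to 4 per list and comparison, plus a few chosen after their values were seen (Klf2, Klf10, Dgkz, Tbx21). Some genes that these rules name are not reported here. The members and lists were chosen with earlier results of these data known.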

Additional observations from a re-analysis of the deposited data

How the results depend on the processing

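Of 365 values of single genes under alternatives (DESeq2, limma, other scalings and filters, a replicate block, the spleen set as a block, fewer libraries), 348 kept their direction and side of the threshold, 8 lost their call, 9 gained one and 0 reversed. The number of the 6 genes called between the spleen groups ran from 1 (without healthy replicate 2) to 5 (without tumour-bearing replicate 4) when 1 replicate was left out. Egr1 was called under every alternative run in the spleen comparison (1.74 to 2.15) and the tumour comparison (0.91 to 1.46), and so were Nr4a1 (2.63 to 3.07), Nr4a2 (3.13 to 3.73) and Nr4a3 (3.66 to 4.28) in the tumour comparison. Egr2 ran from 1.76 to 2.57 between spleens (adjusted p 0.000113 to 0.0523) and Egr3 from 2.31 to 3.24 (0.000195 to 0.0929); limma voom gave Egr3 2.54 (adjusted p = 0.0702). Nr4a3 was called between spleens by DESeq2 (1.09, adjusted p = 0.0398) and with the spleen set as a block (1.00, adjusted p = 0.00182); the cause was not tested. Over all genes that set block called 691 genes between spleens in place of 134, and leaving out healthy replicates 2 or 3 called 42 or 67. In the difference between the changes 705 genes were called, and 398 or 439 without tumour-bearing replicates 3 or 4. Between tumour and tumour-bearing spleen 2453 were called, and 1495 against the set A spleens alone. The comparisons with set A or set B spleens alone and limma voom were added after seeing the data.

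With the replicate block, Egr3 was called between tumour and healthy spleen (1.48, adjusted p = 0.0457) and Nr4a2 in the difference between the changes (2.58, adjusted p = 0.0209), where DESeq2 called it too (2.63, adjusted p = 0.0151). Deviations of same-numbered libraries correlated with r from -0.353 to 0.501 between the spleen groups and from -0.047 to 0.288 between tumour-bearing spleens and tumours. For differently numbered libraries r ran from -0.522 to 0.528 and from -0.252 to 0.158. With so few libraries these values cannot decide whether a shared number pairs libraries. The labels do not say, so no pairing was used in the main fit. Depth limits Egr2 and Egr3 most, with 17 and 13 counts over all healthy spleens. Fitting only tumours and healthy spleens gave no value for Egr3, which the filter removed.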
